A study of Mus musculus with 16 samples.

Results

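The UDP-glucuronosyltransferase (UGT) and cytosolic sulfotransferase (SULT) genes, which encode conjugating enzymes, were followed in mouse livers that had lost Arid1a, or Arid1a together with Arid1b, in livers treated with a nuclear receptor agonist, and in liver tumours. Members were taken by symbol, as every gene of the Ugt1a, Ugt2a, Ugt2b, Ugt3a and Sult families with at least 10 raw counts in at least 2 of the 16 libraries. The symbol pattern matched 42 of 55291 genes, and 37 of them met the count minimum, 19 UGT and 18 SULT genes. The 5 left out were Ugt2a1, Ugt2a2, Sult1c1, Sult4a1 and Sult6b2. A gene can meet the minimum through 1 group in which it is high, so counts over the members that passed describe them and are not support for a difference.

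Conjugation makes lipid-soluble compounds water-soluble and ready for export in bile or urine. UGT enzymes sit in the endoplasmic reticulum and mostly transfer glucuronic acid from UDP-glucuronic acid to bilirubin, steroids, bile acids and drugs. SULT enzymes work in the cytosol and transfer a sulfonate group from the donor PAPS to phenols, steroids, thyroid hormone and bile acids. Both sets of genes are controlled in liver by nuclear receptors and hepatocyte transcription factors, and several Sult2a and Sult3a genes are known to be far higher in female than in male mouse liver.

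RNA from whole liver tissue and from isolated tumours was sequenced, with 2 biological replicates in each of 8 groups. The tumours are labelled Arid1a KO/BcatEXON, a genotype that is not further explained, and carry neither a time nor a treatment label. Arid1a/b DKO livers received DMSO, here called vehicle, and were taken 9 days after tamoxifen. Arid1a KO and WT livers received vehicle and were taken at 9 or at 30 days, or received an agonist of a receptor written as NR1L3. Agonist-treated livers are treated here as 30-day livers, although the title of the WT ones says 9 days. NR1L3 is not a receptor symbol, and the agonist is abbreviated TC without a full name. The recombinase, the deleted exons, and the age and sex of the mice are not stated, and the labels give hepatocytes as cell type for what was whole tissue.

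Libraries held 7569779 to 32026312 counts in replicate 1 and 19999443 to 47768610 in replicate 2, and levels are given as CPM, counts scaled to a common library size with TMM factors. Alb, the albumin gene, was present at 1896 to 18611 CPM in the 16 libraries. Arid1a had 87.5 and 90.1 CPM in Arid1a KO livers, against 72.2 and 77.0 CPM in WT livers at 9 days, so counts over the whole gene did not check the genotype. Arid1b was lower in Arid1a/b DKO than in WT livers (log2 fold change -0.85 ± 0.28, SE, edgeR adjusted p = 0.0439). Tumour replicate 1 and replicate 2 had 354 and 53.8 CPM of Xist and 0.567 and 34.8 CPM of the Y-linked Ddx3y, against 0.0703 to 0.767 CPM of Xist and 55.3 to 98.6 CPM of Ddx3y in the 14 livers. The tumours thus differ from the livers, and from each other, in sex-linked RNA. Cyp2b10, the classical target of the receptor CAR, had 1888 and 1835 CPM in Arid1a KO and 2130.3 and 2044 CPM in WT livers with agonist. With vehicle at 30 days it had 324 and 8.94 CPM in Arid1a KO and 354 and 0.499 CPM in WT livers, so replicate 1 of both vehicle groups stood apart.

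Per kilobase of exon, the mean level in the 4 WT vehicle libraries was highest for Ugt2b5 at 431 CPM per kb (409 to 456), followed by Ugt2b36 at 388 CPM per kb (345 to 409). Ugt2b1 averaged 305 CPM per kb (172 to 422), the bile acid sulfotransferase gene Sult2a8 272 CPM per kb (129 to 362), Ugt2a3 254 CPM per kb (197 to 315) and the phenol sulfotransferase gene Sult1a1 223 CPM per kb (137 to 285). The ranges in parentheses are over libraries, and from Ugt2b36 downward each overlapped the next. Ugt1a genes were not ranked, because they are alternative first exons joined to common exons. Of their exon bases 50.3 to 82.7% overlap other genes, which are the other Ugt1a genes and Gm20528 on the opposite strand. The highest value is that of Ugt1a1, of which 58.2% of 50-base stretches occur in other genes. Reads in the common exons cannot be assigned to 1 Ugt1a gene.

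Few members passed the test after loss of Arid1a alone. The test was edgeR's quasi-likelihood test with Benjamini-Hochberg adjustment over all genes, and a call is an adjusted p under 0.05. Of the 37 members 34 could be tested in livers, since Ugt1a8, Sult2a3 and Sult2b1 were too low. In Arid1a KO against WT livers at 9 days, 0 members were higher and 2 lower, Ugt2b38 and Ugt3a1, where 0.566% of all genes were called, 0.269% higher and 0.297% lower. At 30 days 0 were higher and 1 lower, Ugt3a1, where 0.516% of all genes were called, 0.286% higher and 0.230% lower. The median log2 fold change of the tested members was 0.13 at 9 days and 0.01 at 30 days, beside 0.00 and 0.03 over all genes tested. The difference between the 9-day and 30-day effects was called by edgeR for 0 members, where 0% of all genes were called. At an unadjusted p under 0.05 the edgeR count was also 0. DESeq2 called 0 members, where it called 1 of 33901 genes, and had 1 member at an unadjusted p under 0.05.

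Arid1a/b DKO livers had lower levels of 18 of the 34 members tested. Against WT livers at 9 days 18 members fell and 1 rose, where 26.4% of all genes were called, 13.8% lower and 12.6% higher. Those that fell were 11 of 18 UGT and 7 of 16 SULT genes tested, and the 1 that rose was Sult6b1. Against Arid1a KO livers of the same day 16 fell and 0 rose, where 22.0% of all genes were called, 12.1% lower and 9.92% higher. The median log2 fold change was -1.23 against WT and -2.07 against Arid1a KO livers, beside 0.01 and 0.02 over all genes tested. The comparisons at 9 days share libraries, so their values are not independent of each other. In tissue RNA, fewer hepatocytes and less RNA per hepatocyte cannot be told apart.

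In WT livers the agonist gave 0 calls among members by edgeR, where 0.0280% of all genes were called. DESeq2 called 10 members, where it called 113 of 33901 genes. These 33901 are all genes with any count in the livers. DESeq2 can leave genes of low count without an adjusted p, and the number that had one was not taken. At an unadjusted p under 0.05 there were 14 members, and the share over all genes was not taken. In Arid1a KO livers it gave 0 higher and 1 lower call, Sult2a8, where 0.869% of all genes were called, 0.550% higher and 0.320% lower. With agonist, 0 members were higher and 4 lower in Arid1a KO than in WT livers, Ugt3a1, Sult2a8, Ugt2b38 and Ugt1a10, where 4.95% of all genes were called, 3.05% higher and 1.91% lower. The difference between the genotypes' responses to the agonist was called for 0 members by edgeR, where 0.00561% of all genes were called. DESeq2 called 2 members, where it called 126 of 33901 genes. At an unadjusted p under 0.05 there were 5 members, and the share over all genes was not taken.

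Tumours differed from livers in both directions. They also differed from livers in Xist and Ddx3y RNA, so tumour and sex cannot be told apart in any tumour comparison given here. Against WT vehicle livers of both times 10 of 36 members tested were higher and 15 lower, where 36.6% of all genes were called, 20.5% higher and 16.1% lower. Of the UGT genes 1 was higher and 12 were lower, while of the SULT genes 9 were higher and 3 lower. Against Arid1a KO vehicle livers 10 were higher and 15 lower, where 33.1% of all genes were called, 18.0% higher and 15.2% lower. The median log2 fold change was -0.57 against WT and -0.97 against Arid1a KO livers, beside 0.02 and 0.00 over all genes tested.

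**Figure D1:**
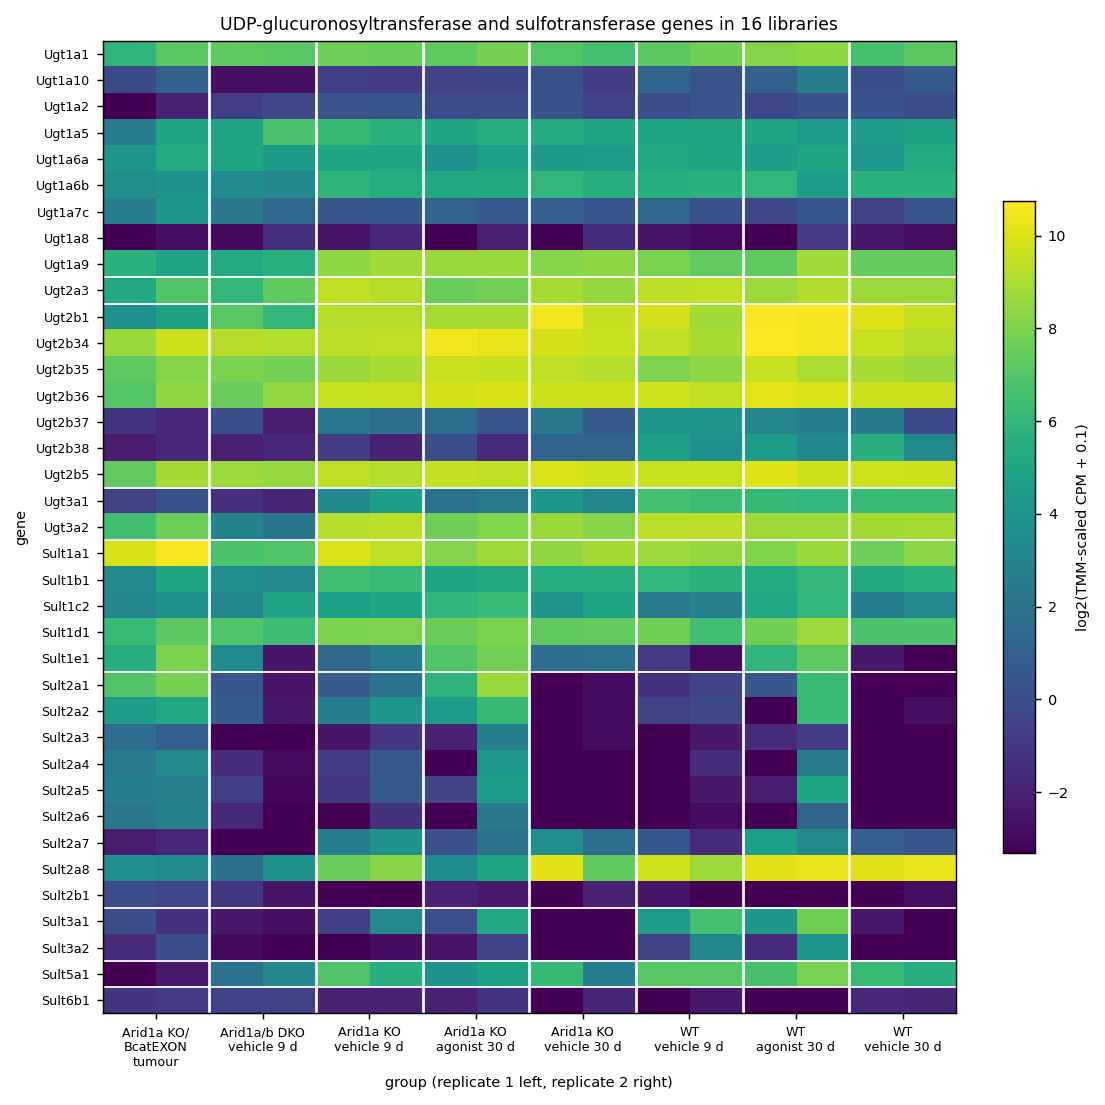
Level of every member in every library, as log2(CPM + 0.1), with libraries in columns by group, genes in rows and bright colours for high levels. Ugt3a1 and Ugt2b38 are brightest in WT livers, and Sult2a4 and Sult2a5 in tumours and in replicate 2 of the agonist groups.

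**Figure D2:**
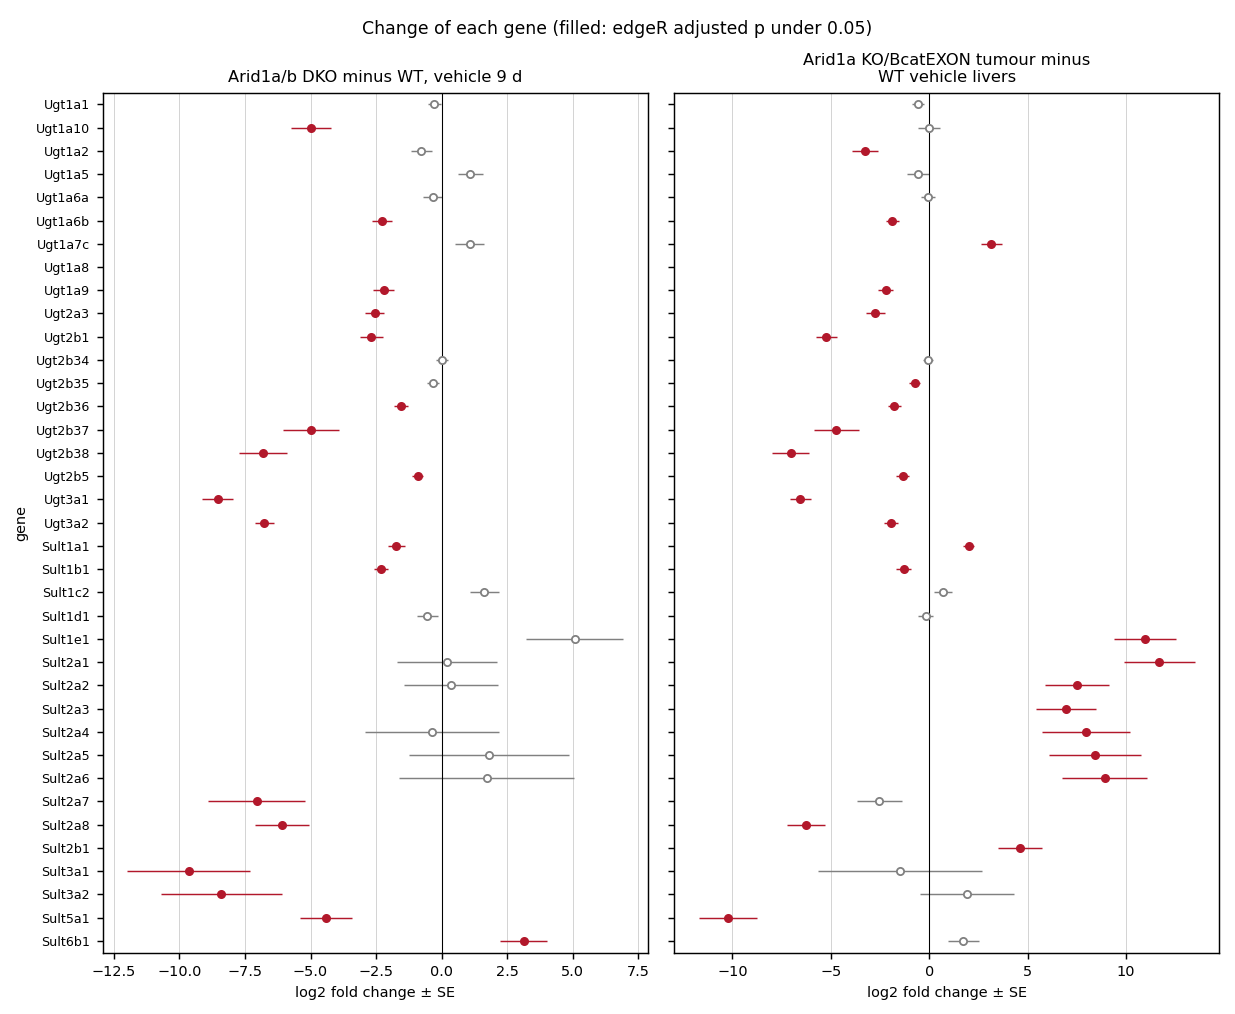
Fitted log2 fold change of each member with its SE, for Arid1a/b DKO against WT livers on the left and tumours against WT vehicle livers on the right, filled where the edgeR adjusted p was under 0.05. On the left 18 filled points lie below 0 and 1 above it, on the right 15 and 10, and fitted values of genes with 3 counts or fewer in a group depend on the prior count.

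The Ugt3a genes encode UGTs that, in humans, use sugars other than glucuronic acid. They lie side by side on the plus strand of chromosome 15 in GRCm38 (GENCODE M21), Ugt3a1 at 9276888 to 9315032 and Ugt3a2 at 9335550 to 9370955. Ugt3a1 was called lower than in WT in Arid1a KO livers at 9 days, at 30 days and with agonist, and in Arid1a/b DKO livers. At 9 days it had 9.48 and 23.1 CPM in Arid1a KO livers, against 92.3 and 80.6 CPM in WT livers. At 30 days it had 17.4 and 8.43 CPM in Arid1a KO livers, against 74.4 and 72.4 CPM in WT livers. With agonist it had 3.79 and 5.76 CPM in Arid1a KO livers, against 69.3 and 64.0 CPM in WT livers. Every Arid1a KO library lay below every WT library. The log2 fold change was -2.39 ± 0.42 at 9 days (SE, edgeR adjusted p = 0.0322), -2.53 ± 0.43 at 30 days (adjusted p = 0.0307) and -3.78 ± 0.45 with agonist (adjusted p = 0.00285). The 9-day call ended without Arid1a KO replicate 1 (edgeR adjusted p = 0.163) and without WT replicate 1 or 2 (0.166 and 0.110). The 30-day call ended without Arid1a KO replicate 2 (edgeR adjusted p = 0.179) and without WT replicate 1 or 2 (0.0972 and 0.160).

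Arid1a/b DKO livers held little of either gene. Ugt3a1 had 0.287 and 0.176 CPM there, a log2 fold change of -8.55 ± 0.58 against WT (SE, edgeR adjusted p = 1.41e-05). Ugt3a2 had 7.77 and 4.18 CPM in Arid1a/b DKO livers, against 588 and 656 CPM in Arid1a KO livers and 635 and 663 CPM in WT livers. Both DKO libraries lay far below the others, whereas those of Arid1a KO and WT overlapped. For Ugt3a2 the log2 fold change was -6.76 ± 0.35 against WT (edgeR adjusted p = 4.57e-06) and -6.70 ± 0.35 against Arid1a KO livers (adjusted p = 4.89e-06). In Arid1a KO against WT it was -0.06 ± 0.27 and not called (edgeR adjusted p = 0.984). Tumours had 0.567 and 1.01 CPM of Ugt3a1 and 89.3 and 197 CPM of Ugt3a2, both below every WT vehicle library. The log2 fold changes against WT were -6.55 ± 0.53 (edgeR adjusted p = 8.25e-06) and -1.94 ± 0.34 (adjusted p = 0.00104). Of the 50-base stretches of Ugt3a1, 9.38% also occur in other genes, so a part of its reads may be counted ambiguously.

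**Figure D3:**
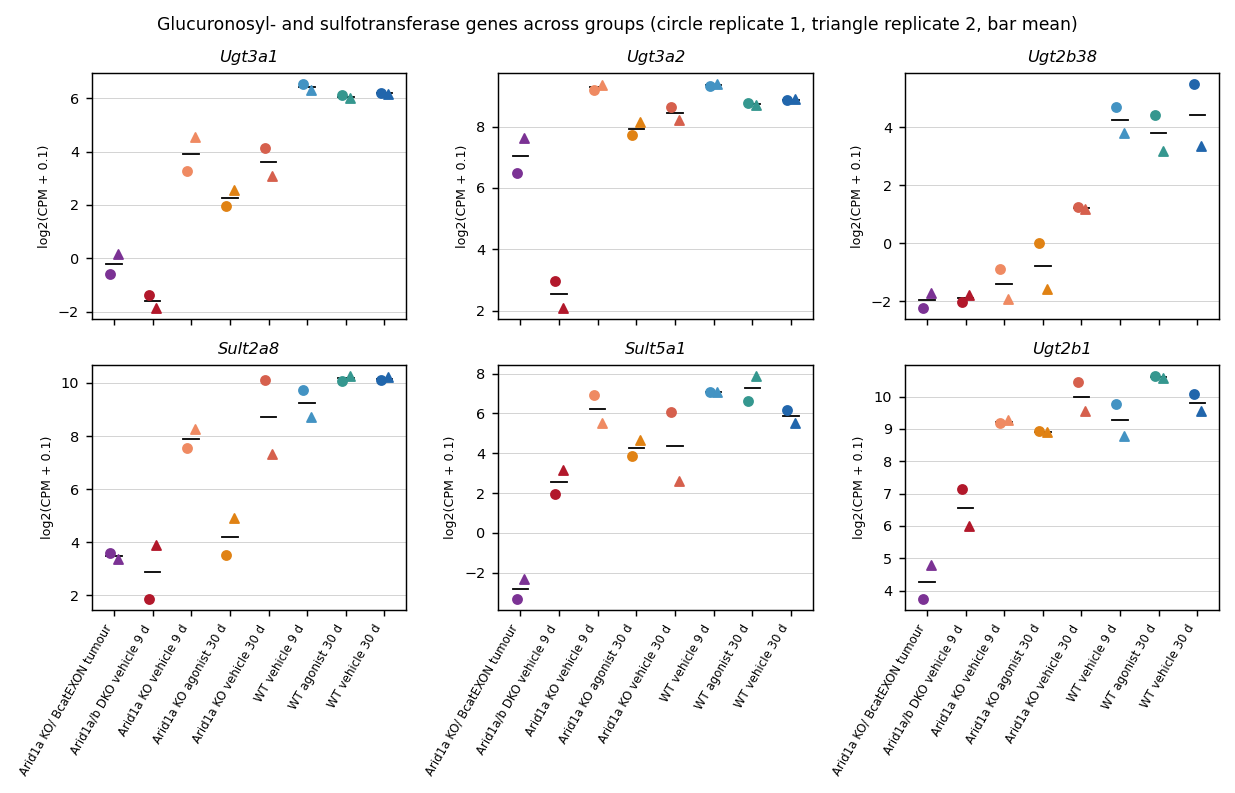
Levels of Ugt3a1, Ugt3a2, Ugt2b38, Sult2a8, Sult5a1 and Ugt2b1 as log2(CPM + 0.1), with a circle for replicate 1, a triangle for replicate 2 and a bar for the group mean. Ugt3a1 and Ugt2b38 are lower in the Arid1a KO groups than in the WT groups, while Ugt3a2 is lowest in Arid1a/b DKO livers.

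The promoter of Ugt3a1 is shown because its RNA was lower in every comparison of Arid1a KO with WT livers. Promoters here are the 250 bases before and 50 after a transcript start from RefSeq on GRCm38.p6, read 5′ to 3′ on the gene's strand, and 32 members had at least 1. Capitals mark GTTAAT on either strand, the repeated unit of the motif of the hepatocyte factor HNF1. These letters occur in 13 of 35 member promoters (37.1%) and in 7.10% of 32851 promoters of all genes, and a match is not a binding site. Other motifs were also searched, among them those of HNF4 and STAT5 and the TATA box, and their counts are not given. Promoters of related members, such as Sult2a3 to Sult2a6, are alike and all hold a match, so the matches are not independent. The Ugt3a1 promoter, chr15:9279579-9279878 on the plus strand, holds 1 match.
Ugt3a1: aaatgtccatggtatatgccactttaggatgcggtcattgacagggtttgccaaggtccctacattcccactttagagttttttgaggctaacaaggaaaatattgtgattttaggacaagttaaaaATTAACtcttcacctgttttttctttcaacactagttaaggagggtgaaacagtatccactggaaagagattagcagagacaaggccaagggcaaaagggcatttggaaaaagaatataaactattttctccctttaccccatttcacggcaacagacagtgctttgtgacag

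The Ugt2b genes lie in a cluster on chromosome 5 and encode UGTs of steroids and bile acids. Ugt2b38 was low in Arid1a KO livers. At 9 days it had 0.444 and 0.160 CPM in Arid1a KO livers, against 25.9 and 14.01 CPM in WT livers. At 30 days it had 2.29 and 2.19 CPM in Arid1a KO livers, against 44.6 and 10.2 CPM in WT livers. With agonist it had 0.913 and 0.232 CPM in Arid1a KO livers, against 21.3 and 9.08 CPM in WT livers. No Arid1a KO library reached the lowest WT library. Its log2 fold change was -6.16 ± 0.94 at 9 days (SE, edgeR adjusted p = 0.0185) and -4.86 ± 0.87 with agonist (adjusted p = 0.0134). At 30 days it was -3.61 ± 0.77 and not called (edgeR adjusted p = 0.0878), while DESeq2 called it (adjusted p = 9.20e-05). The 9-day call ended without Arid1a KO replicate 1 or 2 (edgeR adjusted p = 0.1003 and 0.233) and without WT replicate 1 (0.0751). The call with agonist ended without Arid1a KO replicate 2 (edgeR adjusted p = 0.0723) and without WT replicate 1 (0.0528).

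Ugt2b5 is a close relative of Ugt2b38 in sequence, and 41.7% and 37.4% of their 50-base stretches occur in other genes, so reads may be split between them. Ugt2b5 had 685 and 568 CPM in Arid1a KO livers at 9 days, against 761 and 764 CPM in WT livers, and was not called (log2 fold change -0.28 ± 0.20, SE, edgeR adjusted p = 0.727). Their promoters are shown because genes so alike differed in these values. They are chr5:87424154-87424453 for Ugt2b38 and chr5:87140291-87140590 for Ugt2b5, both on the minus strand. When aligned, 261 of 300 bases were identical (87%), and capitals mark the bases of Ugt2b38 that do not match Ugt2b5.
Ugt2b38: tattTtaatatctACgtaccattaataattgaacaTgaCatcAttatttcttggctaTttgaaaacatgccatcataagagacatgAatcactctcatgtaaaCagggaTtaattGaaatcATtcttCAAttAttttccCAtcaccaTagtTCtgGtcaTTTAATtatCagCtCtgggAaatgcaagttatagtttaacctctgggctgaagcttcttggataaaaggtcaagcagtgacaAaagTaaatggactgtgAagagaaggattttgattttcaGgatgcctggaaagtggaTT
Ugt2b5: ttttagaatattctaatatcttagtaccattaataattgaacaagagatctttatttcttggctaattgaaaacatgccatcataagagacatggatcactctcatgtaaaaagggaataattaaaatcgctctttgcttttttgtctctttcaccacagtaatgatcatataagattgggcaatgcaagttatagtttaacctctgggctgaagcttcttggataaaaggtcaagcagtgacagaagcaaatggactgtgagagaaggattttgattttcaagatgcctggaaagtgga

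In Arid1a/b DKO livers 5 of 7 Ugt2b genes fell against WT, together with Ugt2a3. Ugt2a3 had 63.8 and 159 CPM in Arid1a/b DKO livers, against 685 and 584 CPM in Arid1a KO livers and 646 and 666 CPM in WT livers. Ugt2b1 had 140.0 and 63.6 CPM in Arid1a/b DKO livers, against 581 and 616 CPM in Arid1a KO livers and 869 and 443 CPM in WT livers. For both genes the DKO libraries lay below all libraries of the other groups at 9 days. The log2 fold change against WT was -2.56 ± 0.36 for Ugt2a3 (SE, edgeR adjusted p = 0.000799) and -2.68 ± 0.45 for Ugt2b1 (adjusted p = 0.00205). Ugt2b38 had 0.143 and 0.192 CPM in Arid1a/b DKO livers, a log2 fold change of -6.82 ± 0.91 against WT (edgeR adjusted p = 0.000602). Against Arid1a KO livers it was -0.66 ± 1.08 and not called (edgeR adjusted p = 0.697). The other calls against WT were Ugt2b36, Ugt2b37 and Ugt2b5, with log2 fold changes of -1.54, -4.99 and -0.91.

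Ugt2b34 and Ugt2b35 of the same cluster were not called against WT. Ugt2b34 had 615 and 569 CPM in Arid1a/b DKO livers, against 672 and 501 CPM in WT livers (log2 fold change 0.02 ± 0.23, SE, edgeR adjusted p = 0.965). Ugt2b35 had 254 and 225 CPM in Arid1a/b DKO livers, against 396 and 494 CPM in Arid1a KO and 264 and 334 CPM in WT livers. Ugt2b35 was lower than in Arid1a KO livers (log2 fold change -0.89 ± 0.24, edgeR adjusted p = 0.0222), and so was Ugt2b5 (-0.63 ± 0.20, adjusted p = 0.0420). The Ugt2b35 call ended without Arid1a KO replicate 2 (edgeR adjusted p = 0.141) and without DKO replicate 1 or 2 (0.0628 and 0.0899). The Ugt2b5 call ended without any 1 of the 4 libraries (edgeR adjusted p = 0.0784 to 0.232).

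Tumours had less Ugt2b1 than any other group, at 13.3 and 27.7 CPM, against 581 to 1407 CPM in Arid1a KO and 443 to 1087 CPM in WT vehicle livers. Its log2 fold change was -5.23 ± 0.53 against WT (SE, edgeR adjusted p = 3.44e-05) and -5.28 ± 0.53 against Arid1a KO livers (adjusted p = 4.03e-05). Ugt2a3 had 36.6 and 120.3 CPM in tumours, against 417 to 666 CPM in WT vehicle livers (log2 fold change -2.73 ± 0.47, edgeR adjusted p = 0.00104). Ugt2b38 had 1 and 4 counts in the tumours, against 10.2 to 44.6 CPM in WT vehicle livers (log2 fold change -7.04 ± 0.96, edgeR adjusted p = 0.000220). Of 7 Ugt2b genes 6 were lower than in WT and 5 lower than in Arid1a KO livers, and 0 were higher. The exception to WT was Ugt2b34, with 394 and 814 CPM in tumours, against 501 to 764 CPM in WT vehicle livers, ranges that overlap. The Ugt2b35 call against WT, at an adjusted p of 0.0498, ended without tumour replicate 1 or any of the 4 WT libraries (edgeR adjusted p = 0.0553 to 0.368). The Ugt2b37 call ended without tumour replicate 2 (edgeR adjusted p = 0.0503 against WT and 0.117 against Arid1a KO) and, against Arid1a KO, without tumour replicate 1 (0.0738).

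The Ugt1a genes are spliced from 1 locus on chromosome 1. Ugt1a1, the enzyme of bilirubin, was not called in any comparison. It had 154 and 143 CPM in Arid1a/b DKO livers, against 145 and 215 CPM in WT livers. With agonist it had 286 and 330.3 CPM in WT livers, against 103 and 146 CPM with vehicle. Arid1a KO livers had 162 and 234 CPM with agonist, against 124 and 95.3 CPM with vehicle. Both agonist libraries lay above both vehicle libraries in each genotype, with log2 fold changes of 1.31 ± 0.26 in WT (SE, edgeR adjusted p = 0.149) and 0.85 ± 0.26 in Arid1a KO livers (adjusted p = 0.182). DESeq2 called it in WT (adjusted p = 0.00112). The steroid UGT gene Ugt2b34 had 1725 and 1433 CPM with agonist, against 764 and 581 CPM with vehicle in WT livers (log2 fold change 1.23 ± 0.23, edgeR adjusted p = 0.125). With the 9-day WT vehicle livers in place of the 30-day ones it was called (edgeR adjusted p = 0.0389).

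Ugt1a9, Ugt1a6b and Ugt1a10 fell in Arid1a/b DKO livers. Ugt1a9, whose human namesake conjugates phenols, had 38.1 and 48.7 CPM in Arid1a/b DKO livers, against 325 and 443 CPM in Arid1a KO and 243 and 162 CPM in WT livers. The DKO libraries were lowest and the Arid1a KO libraries highest. Its log2 fold change was -2.22 ± 0.40 against WT (SE, edgeR adjusted p = 0.00318) and -3.14 ± 0.42 against Arid1a KO livers (adjusted p = 0.000632). Ugt1a6b, of the pair that conjugates planar phenols, had 10.9 and 9.07 CPM in Arid1a/b DKO livers, against 45.4 and 51.3 CPM in WT livers (log2 fold change -2.28 ± 0.39, edgeR adjusted p = 0.00215). Its partner Ugt1a6a had 31.6 and 20.1 CPM in Arid1a/b DKO livers, against 34.6 and 31.1 CPM in WT livers, and was not called (edgeR adjusted p = 0.524). Ugt1a10 had 2 and 3 counts in Arid1a/b DKO livers, against 29 and 35 counts in WT livers (log2 fold change -4.98 ± 0.76, edgeR adjusted p = 0.00119). Its call against Arid1a KO livers ended without any 1 of the 4 libraries (edgeR adjusted p = 0.0707 to 0.0794). With agonist it had 9 and 20 counts in Arid1a KO livers, against 16 and 154 counts in WT livers, and the call (edgeR adjusted p = 0.0365) ended without WT replicate 2 (0.374) and without Arid1a KO replicate 1 or 2 (0.204 and 0.127).

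In tumours 1 Ugt1a gene was higher than in WT, Ugt1a7c, and 3 were lower. Ugt1a7c had 5.90 and 17.3 CPM in tumours, against 0.575 to 2.57 CPM in WT vehicle livers (log2 fold change 3.16 ± 0.51, SE, edgeR adjusted p = 0.000691). Ugt1a9 had 50.8 and 30.3 CPM in tumours, against 162 to 243 CPM in WT vehicle livers (log2 fold change -2.21 ± 0.39, edgeR adjusted p = 0.00118). Ugt1a6b had 12.3 and 14.7 CPM in tumours, against 45.4 to 51.3 CPM in WT vehicle livers (log2 fold change -1.87 ± 0.35, edgeR adjusted p = 0.00155). The tumour and WT libraries did not overlap in any of these genes. Ugt1a2 had 3 counts over both tumours, against 77 over the WT vehicle livers, and was 9.62-fold lower in tumours (95% counting interval 3.17 to 47.7). Ugt1a8 had 18 counts or fewer in every library and was not tested, and Ugt1a5 was not called in any comparison.

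Sult1a1, the main phenol sulfotransferase gene, was lower than WT in Arid1a/b DKO livers and higher in tumours. It had 111 and 122 CPM in Arid1a/b DKO livers, against 999.9 and 678 CPM in Arid1a KO and 413 and 366 CPM in WT livers. Tumours had 946 and 1582 CPM, against 199 to 413 CPM in WT vehicle livers. Both DKO libraries lay below, and both tumour libraries above, every WT vehicle library. The log2 fold change in Arid1a/b DKO livers was -1.74 ± 0.32 against WT (SE, edgeR adjusted p = 0.00363) and -2.84 ± 0.34 against Arid1a KO livers (adjusted p = 0.000340). In tumours it was 2.00 ± 0.29 against WT (edgeR adjusted p = 0.000308) and 1.13 ± 0.29 against Arid1a KO livers (adjusted p = 0.0108). That last call ended without tumour replicate 2 (edgeR adjusted p = 0.163) and without 9-day Arid1a KO replicate 2 (0.0554). In Arid1a KO against WT livers at 9 days the log2 fold change of 1.11 ± 0.32 was not called by edgeR (adjusted p = 0.189) and was called by DESeq2 (adjusted p = 0.0335).

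Sult1b1, which sulfonates thyroid hormone, had 12.7 and 10.5 CPM in Arid1a/b DKO livers, against 85.9 and 71.3 CPM in Arid1a KO and 63.0 and 52.1 CPM in WT livers. The DKO libraries lay below all others of that day, and the log2 fold change was -2.30 ± 0.27 against WT (SE, edgeR adjusted p = 0.000274) and -2.75 ± 0.27 against Arid1a KO livers (adjusted p = 0.000114). Tumours had 9.64 and 30.8 CPM of Sult1b1. The call against WT (edgeR adjusted p = 0.0179) ended without tumour replicate 1 (0.106), 30-day WT replicate 2 (0.0578) or 9-day WT replicate 1 (0.0535), and that against Arid1a KO without tumour replicate 1 (0.0525). Sult1d1, which in mice sulfonates catecholamines, had 119.8 and 79.0 CPM in Arid1a/b DKO livers, against 249 and 262 CPM in Arid1a KO and 207 and 84.9 CPM in WT livers. Its call against Arid1a KO livers (log2 fold change -1.35 ± 0.41, edgeR adjusted p = 0.0358) ended without any 1 of the 4 libraries (0.0630 to 0.166). Sult1c2 had 25.0 and 30.0 CPM in Arid1a KO livers at 9 days, against 5.31 and 6.97 CPM in WT livers. It was not called by edgeR (log2 fold change 2.15 ± 0.56, adjusted p = 0.142) and was called by DESeq2 (adjusted p = 0.00481).

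Sult1e1, the oestrogen sulfotransferase gene, was abundant with agonist and in tumours and scarce in WT vehicle livers. In WT livers it had 61.4 and 153 CPM with agonist, against 0.0959 and 0 CPM with vehicle at 30 days. Arid1a KO livers had 122.6 and 226 CPM with agonist, against 3.31 and 3.72 CPM with vehicle. Tumours had 43.8 and 252 CPM, against 0 to 0.402 CPM in WT vehicle livers. Every agonist and tumour library lay above every vehicle library. In WT the 4325 counts over both agonist libraries, against 1 over both vehicle libraries, give a ratio of 4217 (95% counting interval 756 to 166595), which covers counting error only. Neither agonist comparison was called by edgeR (adjusted p = 0.139 in WT and 0.109 in Arid1a KO), and DESeq2 called both (adjusted p = 2.20e-05 and 0.0201). In tumours Sult1e1 was called against WT (edgeR adjusted p = 0.000306) and against Arid1a KO livers (log2 fold change 5.27 ± 1.08, SE, adjusted p = 0.00326). In Arid1a KO livers with vehicle at 30 days it had 131 counts, against 1 in WT, a ratio of 118 (95% counting interval 20.7 to 4678) without a call (edgeR adjusted p = 0.429). Arid1a/b DKO livers had 10.3 and 0.0802 CPM, so their replicates differed more than 4-fold.

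Sult2a8, a mouse bile acid sulfotransferase gene, had the highest level per kilobase among SULT genes in WT vehicle livers. It had 3.54 and 14.9 CPM in Arid1a/b DKO livers, against 186 and 307 CPM in Arid1a KO and 849.5 and 424 CPM in WT livers. The groups did not overlap, with DKO lowest and WT highest, and the log2 fold change was -6.10 ± 1.02 against WT (SE, edgeR adjusted p = 0.00204) and -4.73 ± 0.96 against Arid1a KO livers (adjusted p = 0.00655). In Arid1a KO against WT at 9 days it was -1.37 ± 0.83 and not called (edgeR adjusted p = 0.659). With agonist Sult2a8 had 11.3 and 30.2 CPM in Arid1a KO livers, against 1092 and 1238 CPM in WT livers (log2 fold change -5.80 ± 1.01, edgeR adjusted p = 0.0120). That call ended without Arid1a KO replicate 1 (edgeR adjusted p = 0.107) and without WT replicate 2 (0.0667). Tumours had 11.9 and 10.3 CPM, against 424 to 1188 CPM in WT vehicle livers (log2 fold change -6.27 ± 0.96, edgeR adjusted p = 0.000476).

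The response of Sult2a8 to the agonist was called in Arid1a KO livers, where the vehicle replicates differed more than 4-fold. Arid1a KO livers had 11.3 and 30.2 CPM with agonist, against 1109 and 159.5 CPM with vehicle, where replicate 1 was also the library with high Cyp2b10. In WT livers it had 1092 and 1238 CPM with agonist, against 1113 and 1188 CPM with vehicle. The log2 fold change in Arid1a KO livers was -4.92 ± 0.97 (SE, edgeR adjusted p = 0.0467). The call ended without vehicle replicate 1 (log2 fold change -2.95, edgeR adjusted p = 0.209) and without agonist replicate 1 or 2 (0.361 and 0.124). The difference between the genotypes' responses was -4.94 ± 1.22 on the log2 scale, not called by edgeR (adjusted p = 0.359) and called by DESeq2 (adjusted p = 0.0181).

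Sult2a7, its neighbour on chromosome 7, had 0 counts in both Arid1a/b DKO libraries, against 88 and 373 counts in Arid1a KO and 17 and 7 counts in WT livers. Taking 3 counts over the DKO group as the floor, it was at least 19.0-fold lower than in WT (edgeR adjusted p = 0.0205) and at least 417-fold lower than in Arid1a KO livers (adjusted p = 0.00156). The call against WT ended without DKO replicate 1 or 2 (edgeR adjusted p = 0.0715 and 0.0831) and without WT replicate 1 (0.124). In Arid1a KO livers at 9 days Sult2a7 had 6.52 and 15.0 CPM, against 1.37 and 0.223 CPM in WT livers. The libraries did not overlap, and the log2 fold change of 3.95 ± 1.02 was not called by edgeR (adjusted p = 0.1499) and was called by DESeq2 (adjusted p = 0.00124).

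Sult2a1 to Sult2a6 encode hydroxysteroid sulfotransferases so alike that 7.35 to 62.1% of their 50-base stretches occur in other genes, so their sum is given first. Summed over the 6 genes, tumours had 165 and 297 CPM, against 0.885 and 1.85 CPM in WT vehicle livers at 9 days and 0 and 0.0454 CPM at 30 days. In Arid1a KO livers the sum was 79.6 and 521 CPM with agonist, against 0 and 0.109 CPM with vehicle. In WT livers it was 1.69 and 181 CPM with agonist, against 0 and 0.0454 CPM with vehicle. Replicate 2 held most of the sum in both agonist groups. Agonist replicates differed more than 4-fold in 6 members in Arid1a KO and 7 in WT livers, and 5 of them in each genotype were Sult2a1 to Sult2a6 genes.

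With agonist 0 of the Sult2a1 to Sult2a6 genes were called by edgeR. Sult2a1 had 811 and 12099 counts in Arid1a KO livers with agonist, against 0 and 1 with vehicle (edgeR adjusted p = 0.0669, DESeq2 1.99e-06). In WT livers it had 11 and 1783 counts with agonist, against 0 and 0 with vehicle, at least 583-fold higher (edgeR adjusted p = 0.444, DESeq2 0.000363). In tumours all 6 genes were called higher, against WT and against Arid1a KO livers. Tumours also differed from livers in Xist and Ddx3y RNA, so tumour and sex cannot be told apart in these values. Sult2a1 had 124 and 237 CPM in tumours, against 0 to 0.637 CPM in WT vehicle livers (edgeR adjusted p = 0.000605). Sult2a2 had 20.9 and 35.1 CPM in tumours, against 0 to 0.732 CPM in WT vehicle livers (edgeR adjusted p = 0.00410). Tumour and WT libraries did not overlap for either. The ratios to WT were 174 for Sult2a5, 55.1 for Sult2a3 and 488 for Sult2a6 (95% counting intervals 58.8 to 852, 18.0 to 275 and 86.5 to 19384).

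Several of these tumour calls ended when 1 library was left out. Against WT, the Sult2a4 call ended without any 1 of the 4 WT libraries (edgeR adjusted p = 0.0516 to 0.0641), and the Sult2a5 call without 30-day WT replicate 2 or 9-day WT replicate 1 or 2 (0.0594 to 0.0608). Against Arid1a KO, both ended without any 1 of the 6 libraries (edgeR adjusted p = 0.0665 to 0.110 for Sult2a4 and 0.0893 to 0.125 for Sult2a5). Against Arid1a KO, the Sult2a2 call ended without tumour replicate 2 (edgeR adjusted p = 0.0613), 30-day replicate 1 or 2 (0.0648 and 0.0865) or 9-day replicate 1 (0.0683). The Sult2a3 call there ended without tumour replicate 1 (edgeR adjusted p = 0.0622) or 30-day Arid1a KO replicate 2 (0.0529). The Sult2a6 call there ended without 30-day Arid1a KO replicate 2 (edgeR adjusted p = 0.0587) or 9-day replicate 1 (0.0578).

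Sult3a1, an amine sulfotransferase gene in mice, had 0.0956 and 0.0481 CPM in Arid1a/b DKO livers, against 0.519 and 10.4 CPM in Arid1a KO and 20.9 and 96.7 CPM in WT livers (edgeR adjusted p against WT = 0.0149). Its near neighbour Sult3a2 had 1 and 0 counts in Arid1a/b DKO livers, against 8 and 293 counts in WT livers (edgeR adjusted p = 0.0279). Both calls ended without DKO replicate 1 or 2 (edgeR adjusted p = 0.0853 and 0.0866 for Sult3a1, 0.110 and 0.133 for Sult3a2), and that of Sult3a2 also without WT replicate 2 (0.185). In WT livers at 30 days Sult3a1 had 17.3 and 207 CPM with agonist, against 0.0959 and 0 CPM with vehicle (edgeR adjusted p = 0.385, DESeq2 0.000342). In Arid1a KO livers it had 0.984 and 36.2 CPM with agonist, against 0 counts with vehicle, and was not called by edgeR (adjusted p = 0.197) but by DESeq2 (0.00108). The WT vehicle livers of the 2 times thus differed widely in Sult3a1.

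**Figure D4:**
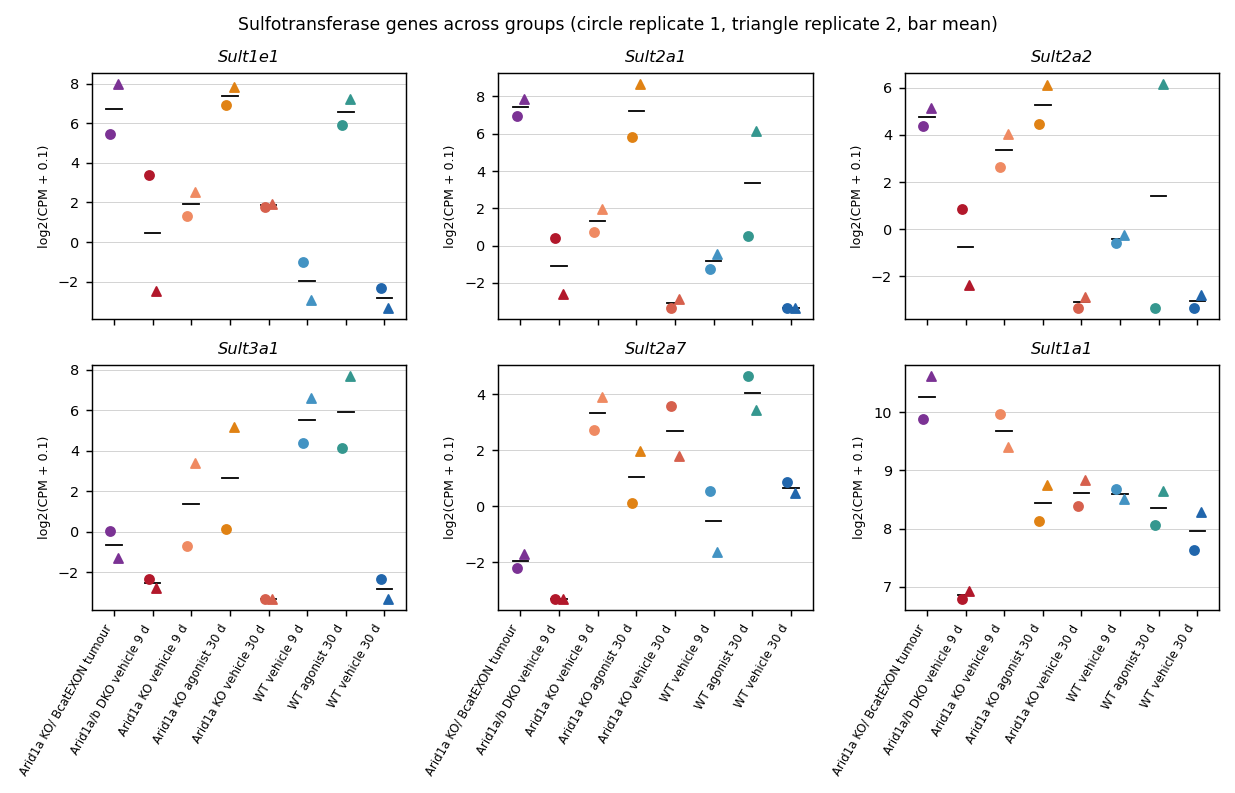
Levels of Sult1e1, Sult2a1, Sult2a2, Sult3a1, Sult2a7 and Sult1a1 as log2(CPM + 0.1), with a circle for replicate 1, a triangle for replicate 2 and a bar for the group mean. Sult1e1 is high in both tumours and all 4 agonist libraries, while Sult2a2 in WT agonist livers is 0 and 70.2 CPM in the 2 replicates.

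Genes known to differ between the sexes also differed between these groups. In sex-linked RNA only the tumours stood apart. Xist had 1 to 11 counts in the livers, against 3119 and 1065 in the tumours. The Y-linked Ddx3y had 618 to 3448 counts in the livers, against 5 and 688 in the tumours. Over all genes, 20.5% rose and 16.1% fell in tumours, and 12.6% rose and 13.8% fell in Arid1a/b DKO livers, each against WT. In Arid1a KO against WT livers with agonist 3.05% of all genes rose and 1.91% fell. Of 11 genes known as higher in female liver, 4 rose and 0 fell in tumours against WT livers, and 5 fell and 0 rose in Arid1a/b DKO against WT livers. Against Arid1a KO livers, 1 of the 11 fell and 0 rose in Arid1a/b DKO livers, where 12.1% of all genes fell and 9.92% rose. In Arid1a KO against WT livers at 9 days 0 of the 11 were called, where 0.566% of all genes were. Their summed level at 9 days was 295 and 105 CPM in Arid1a/b DKO, 451 and 332 CPM in Arid1a KO and 1138 and 1818 CPM in WT livers. In WT livers at 30 days it was 77.0 and 47.7 CPM. With agonist it was 612 and 907 CPM in Arid1a KO and 187 and 478 CPM in WT livers, and in tumours 555 and 1716 CPM. In Arid1a KO vehicle livers it was 11.9 and 464 CPM at 30 days. The 11 genes include Cyp2b9 and Cyp2b13, also listed to check the agonist. In Arid1a KO livers with agonist these had 3715 and 1297 counts in replicate 1 and 16 and 204 in replicate 2. In WT livers with agonist they had 231 and 131 counts in replicate 1 and 3084 and 1991 in replicate 2. Of the 11 genes A1bg was at 0 in both tumours and in WT vehicle livers at 30 days. The median log2 fold change of the 11 genes was 0.80 in tumours and -3.64 in Arid1a/b DKO livers against WT. Of 10 genes known as higher in male liver, 7 fell in tumours and 7 in Arid1a/b DKO against WT livers, and 5 fell in Arid1a KO against WT livers with agonist, and 0 rose in these comparisons. The median of the 10 was -4.72 in tumours, -4.83 in Arid1a/b DKO livers and -2.35 in Arid1a KO livers with agonist, each against WT. The part of these lists in the Sult2a and Sult3a values was not tested.

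Promoters of the Sult2a cluster are shown because Sult2a8 was lower in tumours than in WT livers while Sult2a4 and Sult2a5 were higher. They are chr7:13989539-13989838 (minus strand) for Sult2a4, chr7:13623717-13624016 (plus strand) for Sult2a5 and chr7:14446538-14446837 (minus strand) for Sult2a8. Capitals again mark GTTAAT on either strand, with 1 match in Sult2a4, 2 in Sult2a5 and 0 in this window of Sult2a8. The promoters of Sult2a3, Sult2a4, Sult2a5 and Sult2a6 were 67.3 to 80.7% identical to each other and 42.3 to 48.3% identical to that of Sult2a8.
Sult2a4: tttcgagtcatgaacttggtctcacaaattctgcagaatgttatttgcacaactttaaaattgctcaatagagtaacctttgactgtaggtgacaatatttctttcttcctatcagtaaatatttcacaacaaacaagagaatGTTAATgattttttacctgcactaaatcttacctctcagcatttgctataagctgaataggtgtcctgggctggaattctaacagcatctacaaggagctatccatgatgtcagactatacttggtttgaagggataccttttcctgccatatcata
Sult2a5: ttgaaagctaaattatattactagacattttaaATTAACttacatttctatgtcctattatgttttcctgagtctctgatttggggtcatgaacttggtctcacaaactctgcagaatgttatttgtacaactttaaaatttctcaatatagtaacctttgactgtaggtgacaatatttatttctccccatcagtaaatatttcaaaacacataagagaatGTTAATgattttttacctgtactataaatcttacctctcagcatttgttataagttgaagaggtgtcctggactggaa
Sult2a8: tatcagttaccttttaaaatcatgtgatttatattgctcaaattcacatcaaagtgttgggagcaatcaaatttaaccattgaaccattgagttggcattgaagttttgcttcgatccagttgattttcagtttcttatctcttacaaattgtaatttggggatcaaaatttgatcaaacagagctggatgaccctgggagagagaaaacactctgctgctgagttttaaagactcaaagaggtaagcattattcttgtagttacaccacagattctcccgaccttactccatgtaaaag

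Sult5a1 had 0 and 2 counts in the tumours, against 46.3 to 137 CPM in WT vehicle livers. It was 1441-fold lower in tumours (95% counting interval 399 to 11902, edgeR adjusted p = 0.000338). In Arid1a/b DKO livers it had 3.75 and 8.91 CPM, against 119.6 and 45.8 CPM in Arid1a KO and 137 and 134 CPM in WT livers. The log2 fold change against WT was -4.41 ± 0.98 (SE, edgeR adjusted p = 0.00902), and the call ended without DKO replicate 1 (adjusted p = 0.0709). The call against Arid1a KO (edgeR adjusted p = 0.0200) ended without DKO replicate 1 or 2 (0.123 and 0.0513) or Arid1a KO replicate 1 (0.110). Sult6b1 had 26 and 36 counts in Arid1a/b DKO livers, against 0 and 3 counts in WT livers, a ratio of 8.70 (95% counting interval 2.84 to 43.3, edgeR adjusted p = 0.0298). That call ended without any 1 of the 4 libraries (edgeR adjusted p = 0.0599 to 0.1497) and with DESeq2 (adjusted p = 0.0759), and the gene overlaps an antisense gene in part. Sult2b1, a cholesterol sulfotransferase gene, had 8 and 14 counts in tumours, against 2 over the WT vehicle livers, a ratio of 29.3 (95% counting interval 7.21 to 257, edgeR adjusted p = 0.0103). That call ended without 30-day WT replicate 1 (edgeR adjusted p = 0.0583) or 9-day WT replicate 2 (0.0675), and the call against Arid1a KO without 9-day Arid1a KO replicate 2 (0.0686).

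Of 5 genes that supply UDP-glucuronic acid, 1 rose in Arid1a KO livers at 9 days, 2 in Arid1a/b DKO livers and 1 in tumours against WT, and 0 fell. The median log2 fold changes were 0.53, 0.27 and 0.39, beside 0.00, 0.01 and 0.02 over all genes tested. Of all genes 0.269%, 12.6% and 20.5% rose in these comparisons, and 0.297%, 13.8% and 16.1% fell. Ugp2, which makes UDP-glucose, had 883 and 966 CPM in Arid1a KO livers at 9 days, against 355 and 321 CPM in WT livers (log2 fold change 1.45 ± 0.26, SE, edgeR adjusted p = 0.0377). Arid1a/b DKO livers had 201 and 274 CPM, lower than in Arid1a KO livers (log2 fold change -1.96 ± 0.26, edgeR adjusted p = 0.000686). Ugdh, which oxidises UDP-glucose to UDP-glucuronic acid, had 593 and 457 CPM in Arid1a/b DKO livers, against 216 and 244 CPM in WT livers (log2 fold change 1.20 ± 0.32, edgeR adjusted p = 0.0211). The libraries did not overlap for either gene. Ugdh had 558 and 1082 CPM in tumours, against 216 to 321 CPM in WT vehicle livers (log2 fold change 1.68 ± 0.31, edgeR adjusted p = 0.00144). With agonist it had 918 and 872 CPM in Arid1a KO livers, against 389 and 330.2 CPM in WT livers (log2 fold change 1.32 ± 0.32, edgeR adjusted p = 0.0434).

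Of 9 genes for PAPS and sulfate, 2 fell and 0 rose in Arid1a/b DKO livers against WT, and 5 fell and 0 rose in tumours. The median log2 fold changes were -0.07 and -0.69, beside 0.01 and 0.02 over all genes tested. Of all genes 13.8% fell and 12.6% rose in Arid1a/b DKO livers, and 16.1% fell and 20.5% rose in tumours. Papss2, a PAPS synthase gene, had 70.4 and 129 CPM in tumours, against 302 to 473 CPM in WT vehicle livers (log2 fold change -1.94 ± 0.36, SE, edgeR adjusted p = 0.00162). Suox, the sulfite oxidase gene, had 21.8 and 36.8 CPM in Arid1a/b DKO livers, against 218 and 151 CPM in WT livers (log2 fold change -2.65 ± 0.42, edgeR adjusted p = 0.00158). It was also lower in tumours, at 27.7 and 41.7 CPM (log2 fold change -2.35 ± 0.40, edgeR adjusted p = 0.000847). Of 4 glucuronidase and sulfatase genes, the beta-glucuronidase gene Gusb rose in Arid1a/b DKO livers. It had 235 and 125 CPM, against 54.9 and 60.6 CPM in WT livers (log2 fold change 1.64 ± 0.34, edgeR adjusted p = 0.00610). The arylsulfatase gene Arsa fell (log2 fold change -1.86 ± 0.28, edgeR adjusted p = 0.00104). Sts was also listed but was not among the genes counted. Whether the arylsulfatases act on conjugates made by SULT enzymes was not tested. Of 6 exporter genes Abcc1 rose and Abcc3 and Abcg2 fell in Arid1a/b DKO against WT livers, by 1.35, -2.13 and -1.19 on the log2 scale. Abcc4, an exporter of conjugates to blood, had 138 and 234 CPM in tumours, against 3.90 to 27.6 CPM in WT vehicle livers (log2 fold change 4.17 ± 0.60, edgeR adjusted p = 0.000300).

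**Figure D5:**
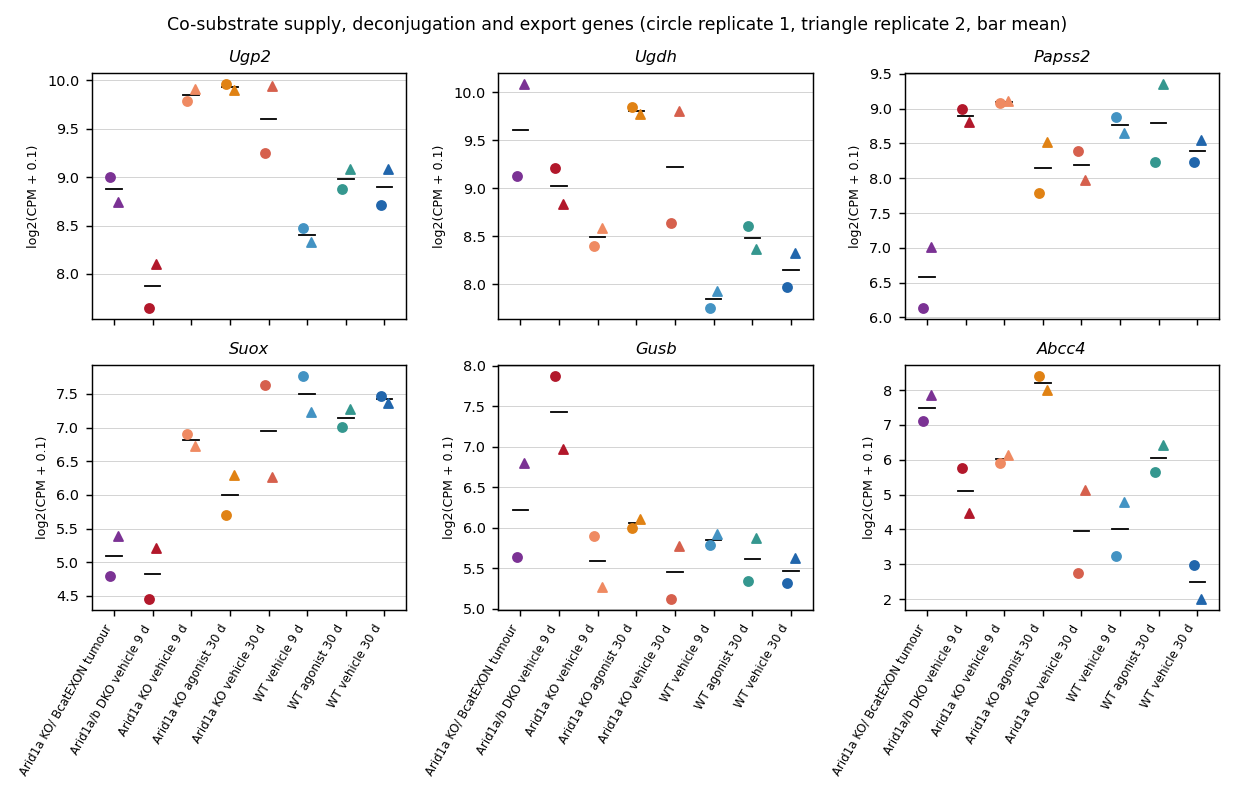
Levels of Ugp2, Ugdh, Papss2, Suox, Gusb and Abcc4 as log2(CPM + 0.1), with a circle for replicate 1, a triangle for replicate 2 and a bar for the group mean. Ugdh is higher in tumours and Arid1a/b DKO livers than in WT vehicle livers, and Papss2 is lower in tumours than in WT vehicle livers.

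Of 18 regulators of conjugation genes, 6 fell and 0 rose in Arid1a/b DKO against WT livers, and 7 fell and 1 rose in tumours against WT. Over all genes tested, 13.8% were called lower and 12.6% higher in Arid1a/b DKO livers, and 16.1% lower and 20.5% higher in tumours. The median log2 fold change of the 18 was -0.65 in Arid1a/b DKO livers and -0.80 in tumours, beside 0.01 and 0.02 over all genes tested. In Arid1a KO against WT livers 0 of 18 were called at 9 days, at 30 days or with agonist by edgeR. Nr1h4, the bile acid receptor FXR, had 31.9 and 25.2 CPM in Arid1a/b DKO livers, against 284 and 269 CPM in WT livers (log2 fold change -3.27 ± 0.32, SE, edgeR adjusted p = 0.000112). Nr1i2, the xenobiotic receptor PXR, had 98.4 and 78.9 CPM in Arid1a/b DKO livers, against 193 and 155 CPM in WT livers (log2 fold change -0.97 ± 0.32, edgeR adjusted p = 0.0466). In tumours it had 266 and 398 CPM, against 114 to 193 CPM in WT vehicle livers (log2 fold change 1.16 ± 0.28, edgeR adjusted p = 0.00712). Nr1i3, the receptor CAR, had 49.3 and 53.2 CPM in Arid1a/b DKO livers, against 216 and 101 CPM in WT livers, and was not called (edgeR adjusted p = 0.0856).

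Some markers of other cells were higher in Arid1a/b DKO than in WT livers, where 12.6% of all genes rose and 13.8% fell. Of 6 stellate cell and fibroblast genes 4 rose, and their summed level was 1732 and 860.3 CPM in Arid1a/b DKO livers, against 216 and 267 CPM in WT livers. Of 6 macrophage genes 1 rose, near the share over all genes. Their sums were 1261 and 744 CPM in Arid1a/b DKO and 411 and 722 CPM in WT livers, alike in replicate 2. Of 6 bile duct genes 2 rose, with sums of 426 and 158 CPM in Arid1a/b DKO and 58.5 and 40.0 CPM in WT livers. Of 7 hepatocyte genes 4 fell, with sums of 18079 and 18455 CPM in Arid1a/b DKO and 39671 and 19040.3 CPM in WT livers. No gene of these 4 lists was at 0 in both libraries of a group, and none of them passed the test in the other direction in Arid1a/b DKO livers. Of 5 endothelial genes 2 rose in Arid1a/b DKO livers, with sums of 412 and 399 CPM, against 154 and 287 CPM in WT livers. Of 5 genes of intestinal epithelium 3 rose in tumours, with sums of 274 and 328 CPM. WT livers had 97.2 and 54.1 CPM at 9 days and 66.8 and 92.9 CPM at 30 days, with Cdx2 and Krt20 at 0. Arid1a/b DKO livers had similarly high sums of 230 and 243 CPM. Krt20 had 2496 and 1931 counts in Arid1a/b DKO livers and 69 and 843 in tumours. Arid1a KO livers with agonist had 161 and 224 counts of Krt20. In tumours 4 macrophage genes fell and 1 rose, and 2 hepatocyte genes fell. Over all genes 20.5% rose and 16.1% fell in tumours against WT. The part of these markers in the values of the members was not tested.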

How the data were processed

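RNA was extracted with Trizol and a column and libraries were made with a TruSeq kit, per the labels' protocols. Reads were processed with fastp, STAR 2.7.3 and featureCounts on GRCm38.p6, per the submitters' processing notes, with annotation release and strand setting not given in the sources used here. Raw counts per gene, deposited by the authors, were the values used. Their normalized table was not used.

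Counts were tested with edgeR 4.0.16 in R 4.3.3 (quasi-likelihood F test, TMM scaling, filterByExpr, Benjamini-Hochberg adjustment over all genes tested, calls at an adjusted p under 0.05). Liver comparisons came from 1 fit of 14 libraries and 17831 genes with 7 residual degrees of freedom. Tumour comparisons came from 1 fit of all 16 libraries and 18193 genes. Each SE came from the fold change and its F statistic (log2 value over root F). The code was tested on simulated data. Members and lists were chosen with earlier results of these data known. All members are accounted for, and per-library values are given for up to 8 rising and 8 falling members per comparison by adjusted p and for members named by role. Other genes come from fixed lists.

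Results were recomputed with DESeq2 1.42.0, with RLE scaling, without the filter on low counts, with other sets of libraries or references, with a replicate block and with each library left out in turn, which assumes that a lone sample varies as the other groups do. A fit that kept only the second of each pair of 30-day vehicle livers was added after the data were seen. A count of 3 was the floor and corresponded to 0.0481 to 0.363 CPM per library. Floors and 95% counting intervals reflect counting error alone. The labels do not say which animals or tumours the replicates came from. Gene positions come from GENCODE M21 and promoters from RefSeq on GRCm38.p6. Shared sequence is the share of 50-base stretches of a gene's exons found in another gene.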

Additional observations from a re-analysis of the deposited data

How the results depend on the processing

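The counts of members called in the comparisons of Arid1a/b DKO and tumours moved by less than 1.5 times under every alternative run. With 1 library left out they were 16 to 17 for Arid1a/b DKO against WT, 11 to 13 against Arid1a KO, 21 to 26 for tumours against WT and 20 to 24 against Arid1a KO. The smaller counts depended on the processing, and the cause was not tested. With DESeq2 they were 5 for Arid1a KO against WT at 9 days, 2 at 30 days, 10 for the agonist in WT, 9 for the agonist in Arid1a KO, 8 for Arid1a KO against WT with agonist and 2 for the agonist by genotype. Of 33901 genes with any count, not all of which need have an adjusted p, DESeq2 called 477, 397, 113, 643, 1821 and 126 in that order. With no low-count filter the member counts were 16, 6, 15, 17, 15 and 5 in that order, and 1 for the difference between times. Of 33901 genes that fit called 1018, 942, 393, 1353, 2468 and 493, and 151 for the difference between times. Keeping only the second of each pair of 30-day vehicle livers gave 0 for Arid1a KO against WT at 30 days and 0 for the agonist in Arid1a KO. With the 9-day WT livers as WT vehicle the agonist in WT gave 1, where 60 of 17831 genes were called. With 1 library left out they were 0 to 1 for Arid1a KO against WT at 9 days, 0 to 1 at 30 days, 0 to 1 for the agonist in Arid1a KO, 2 to 3 for Arid1a KO against WT with agonist, and 0 for the agonist in WT, the agonist by genotype and the difference between times.

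With the replicate block the counts were 3 and 2 for Arid1a KO against WT at 9 and 30 days, 20 and 18 for Arid1a/b DKO against WT and against Arid1a KO, 6 for Arid1a KO against WT with agonist, 24 and 28 for tumours against WT and against Arid1a KO, 1 for the agonist in Arid1a KO, and 0 for the agonist in WT and both tests of a difference between effects. Over all genes the calls were 132, 93, 5344, 4510, 1146, 7183, 6559, 207 and 5 in that order, 9 for the agonist by genotype and 0 for the difference between times. These were of 17831 genes in livers and 18193 in tumours. The block ended the calls of Sult2a8 for the agonist in Arid1a KO (edgeR adjusted p = 0.0590) and of Ugt2b35 in tumours against WT (0.0545), and no other call made without it. For Arid1a KO against WT it added Sult1c2 at 9 days (edgeR adjusted p = 0.0258), Ugt2b38 at 30 days (0.0280) and Ugt2b1 and Sult3a2 with agonist (0.0202 and 0.0454). For Arid1a/b DKO it added Sult1c2 against WT (0.0114) and Ugt2b37 and Sult3a1 against Arid1a KO (0.00962 and 0.00905). It also added Sult3a1 for the agonist in Arid1a KO (0.0323) and Ugt2b38, Sult3a2 and Sult1c2 in tumours against Arid1a KO (0.0498, 0.0119 and 0.0146). Deviations of samples with the same number correlated at 0.176 to 0.475 in 5 of 7 comparisons and at -0.0380 and 0.0456 in those of Arid1a/b DKO. Whether the numbers pair the samples is not known: the labels do not say what a number shares, and each comparison has only 2 pairs.

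Single gene results were followed for every call of the main fit and for a few selected results that were not called, 111 in all. For these, alternatives gave the same call 1025 times, a lost call 119 times, a gained call 32 times and a reversed direction 0 times. Lost calls were thus counted in full, while calls gained by other members are not among the 32. Some calls also ended under settings that left out no single library. With all 16 libraries in the fit these were Ugt2b5 in Arid1a/b DKO against WT (edgeR adjusted p = 0.0931), Ugt2b5, Ugt2b35 and Sult1d1 against Arid1a KO (0.252, 0.0622 and 0.0535) and Ugt1a10 with agonist (0.0513). With only the 30-day vehicle livers they were Sult1b1, Sult2a4 and Sult2a5 in tumours against WT (0.0600, 0.0538 and 0.0609) and Sult1b1, Sult2a4, Sult2a5 and Sult2b1 against Arid1a KO (0.0790, 0.0596, 0.0673 and 0.104). With only the libraries of the groups compared they were Sult1b1 and Ugt2b35 in tumours against WT (0.0504 and 0.104) and Ugt2b5 against Arid1a KO (0.0713). RLE scaling ended Ugt2b5 in Arid1a/b DKO against Arid1a KO (0.0519) and Ugt2b35 in tumours against WT (0.0550), and the fit with no low-count filter ended Ugt2b5 in Arid1a/b DKO against Arid1a KO (0.132). Keeping only the second 30-day vehicle livers ended Ugt3a1 for Arid1a KO against WT at 30 days (0.0608) and Sult2a8 for the agonist in Arid1a KO (0.265). DESeq2 did not call Sult2a6 in tumours against WT or Arid1a KO (adjusted p = 0.0978 and 0.180), nor Sult6b1 in Arid1a/b DKO against WT (0.0759). Replicate 1 was the shallower library in every group, which limits genes with few counts most.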
